A study of Homo sapiens with 4 samples.

Results

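The laminin chain and integrin subunit genes were followed in single-nucleus RNA-seq of enteric ganglioids. They were taken by symbol from the deposited count matrices, and 38 of the 36601 genes matched: 5 laminin alpha, 4 laminin beta and 3 laminin gamma chains, 18 integrin alpha and 8 integrin beta subunits. Laminins are large secreted trimers of an alpha, a beta and a gamma chain that polymerise into the sheet of basement membranes. Integrins are membrane receptors, each an alpha paired with a beta subunit, that bind laminin, collagen, fibronectin and other matrix proteins and link them to the actin cytoskeleton. In the developing gut, enteric neural crest cells migrate through matrix laid down largely by the mesenchyme, and beta1 integrins are known to be needed for that migration.

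The ganglioids were free-floating 3D cultures derived from H9, an established human embryonic stem cell line, by way of enteric neural crest spheres. From day 15 the spheres were fed a neuron medium with GDNF. There were 2 control and 2 PP121 samples of pooled ganglioids, with 2 differentiation replicates per group; the series' design text calls the differentiation of each sample independent, and whether the control and PP121 samples of a replicate number share one is not stated. PP121, a multi-targeted receptor tyrosine kinase inhibitor whose targets include the PDGF, VEGF and EGF receptors, was in the medium at 2 µM on days 15 to 20, and the labels do not say whether the controls received vehicle. The deposited annotation dates replicate 1 of both groups to day 42 and replicate 2 to day 38, so that day and differentiation cannot be told apart, and all samples share the same cell line.

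The 4 samples held 2912 to 4587 annotated nuclei and 23348045 to 34123759 UMIs (unique molecular identifiers, counted molecules) in them. Levels are given as CPM, UMIs per 1000000 UMIs of a class in a sample, and they are not corrected for gene length, so that they are compared between classes and samples and not between genes. Of the deposited classes, enteric neurons (976 to 2301 nuclei per sample), Progenitor 1 (501 to 1197) and Progenitor 2 (683 to 1155) were large in every sample. The mesenchymal class held 40 and 33 nuclei in control and PP121 replicate 1 but 408 and 422 in replicate 2, so that its day 42 values rest on few nuclei. The classes came from clustering the same counts, and levels by class are therefore descriptions with no test. The control nuclei were also clustered apart from the PP121 nuclei, and a common rule moved 15.2% and 18.0% of control neurons to Progenitor 1 against 3.05% and 1.74% of PP121 neurons. The summed level of 10 mesenchymal markers was 2877 to 3401 CPM in mesenchymal nuclei and 13.4 to 58.9 CPM in neurons, while the summed level of 10 neuron markers was 1717 to 2334 CPM in neurons and 280 to 408 CPM in mesenchymal nuclei; of the neuron list PRPH, a peripheral neuron filament, was at 1.37 to 5.22 CPM in neurons. The summed level of 10 neural crest and glial progenitor markers was 168 to 235 CPM in neurons and 70.7 to 123 CPM in the progenitors, with SOX10 at 4.93 to 14.0 CPM in neurons and progenitors alike, so that this list did not set the progenitors apart. The 9 to 37 nuclei per sample labelled epithelial had a summed level of 10 epithelial markers of 99.7 to 131 CPM, above the 22.9 to 35.6 CPM of neurons in every sample. Mesenchymal nuclei stood above them on this list in replicate 1 (266 and 118 CPM against 99.7 and 108 CPM) and below them in replicate 2. Nuclei labelled epithelial also held neuron markers at 719.5 to 1499.9 CPM, so that they are called by that label only.

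RefSeq promoters were at hand for 26 of the 38 genes. Shown are the 250 bases before a RefSeq start in GRCh38.p14, the build family named in the submitters' notes, for 5 genes on which the results turn and whose window lies outside the annotated gene. These are LAMA2 (chr6:128882888-128883137, plus strand), LAMC1 (chr1:183023170-183023419, plus), ITGA11 (chr15:68432164-68432413, minus), ITGAV (chr2:186589806-186590055, plus) and ITGA6 (chr2:172427086-172427335, plus). Capitals mark GC boxes (GGGCGG on either strand) and E-boxes (CANNTG, a palindrome).
LAMA2: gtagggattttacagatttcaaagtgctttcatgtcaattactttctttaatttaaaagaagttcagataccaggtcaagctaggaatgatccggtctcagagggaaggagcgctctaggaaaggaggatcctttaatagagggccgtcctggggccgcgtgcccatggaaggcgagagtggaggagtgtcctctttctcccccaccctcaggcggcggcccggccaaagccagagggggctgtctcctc
LAMC1: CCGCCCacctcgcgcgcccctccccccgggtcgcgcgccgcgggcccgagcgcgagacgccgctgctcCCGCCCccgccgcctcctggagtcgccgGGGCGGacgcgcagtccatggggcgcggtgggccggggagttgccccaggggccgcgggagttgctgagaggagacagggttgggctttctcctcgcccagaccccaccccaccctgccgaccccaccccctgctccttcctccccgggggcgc
ITGA11: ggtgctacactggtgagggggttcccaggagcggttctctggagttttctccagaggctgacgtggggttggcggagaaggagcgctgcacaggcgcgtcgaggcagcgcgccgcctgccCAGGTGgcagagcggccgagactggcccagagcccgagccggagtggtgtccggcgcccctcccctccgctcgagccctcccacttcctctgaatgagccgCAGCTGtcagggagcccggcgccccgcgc
ITGAV: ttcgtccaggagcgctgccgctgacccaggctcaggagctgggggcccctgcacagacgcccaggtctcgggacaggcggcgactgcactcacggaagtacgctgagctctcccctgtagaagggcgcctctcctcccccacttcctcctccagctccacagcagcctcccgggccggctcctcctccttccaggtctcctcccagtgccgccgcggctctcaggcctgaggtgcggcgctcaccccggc
ITGA6: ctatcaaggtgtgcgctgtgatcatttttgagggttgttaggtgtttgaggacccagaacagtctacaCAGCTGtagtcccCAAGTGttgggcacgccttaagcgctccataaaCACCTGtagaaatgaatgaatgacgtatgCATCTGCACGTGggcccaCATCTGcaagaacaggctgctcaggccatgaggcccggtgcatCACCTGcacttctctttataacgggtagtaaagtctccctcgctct
In the windows shown, LAMC1 held 3 GC boxes, ITGA11 held 2 E-boxes and ITGA6 held 7 E-boxes with 1 TATA box (TATAAA on either strand, not in capitals). Those of LAMA2 and ITGAV held none of these motifs. Another RefSeq start of ITGAV, not shown, had 1 E-box in its window, and another of ITGA6 had 3 GC boxes and 2 E-boxes. Of all 35116 promoters of this length, 42.6% held a GC box, 61.8% an E-box, 10.7% a TATA box and 6.57% an AP-1 site (TGANTCA on either strand). Among the 33 promoters of the 26 genes, these were found in 17, 18, 2 and 2.

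Mesenchymal nuclei carried most of the laminin chains and several integrin subunits at higher levels than every other main class. Of the 38 genes, 13 reached a mean of 50 CPM in a class, and 9 stayed under 10 CPM in all 4 main classes. Of the 29 with at least 10 CPM, 17 were highest in mesenchymal nuclei, 6 in neurons, 3 in Progenitor 1 and 3 in Progenitor 2. For 14 genes, LAMA1, LAMA2, LAMA4, LAMB1, LAMB2, LAMC1, LAMC3, ITGA1, ITGA4, ITGA9, ITGA10, ITGA11, ITGAV and ITGB5, the 4 mesenchymal values lay above the values of neurons, Progenitor 1 and Progenitor 2 without overlap. Mesenchymal nuclei were above neurons without overlap for 15 of the 27 laminin and integrin genes with at least 10 CPM in either class, where 16.7% of all such genes were. They were above Progenitor 1 for 14 of 24 (15.9% of all genes) and above Progenitor 2 for 15 of 24 (13.2%).

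**Figure D1:**
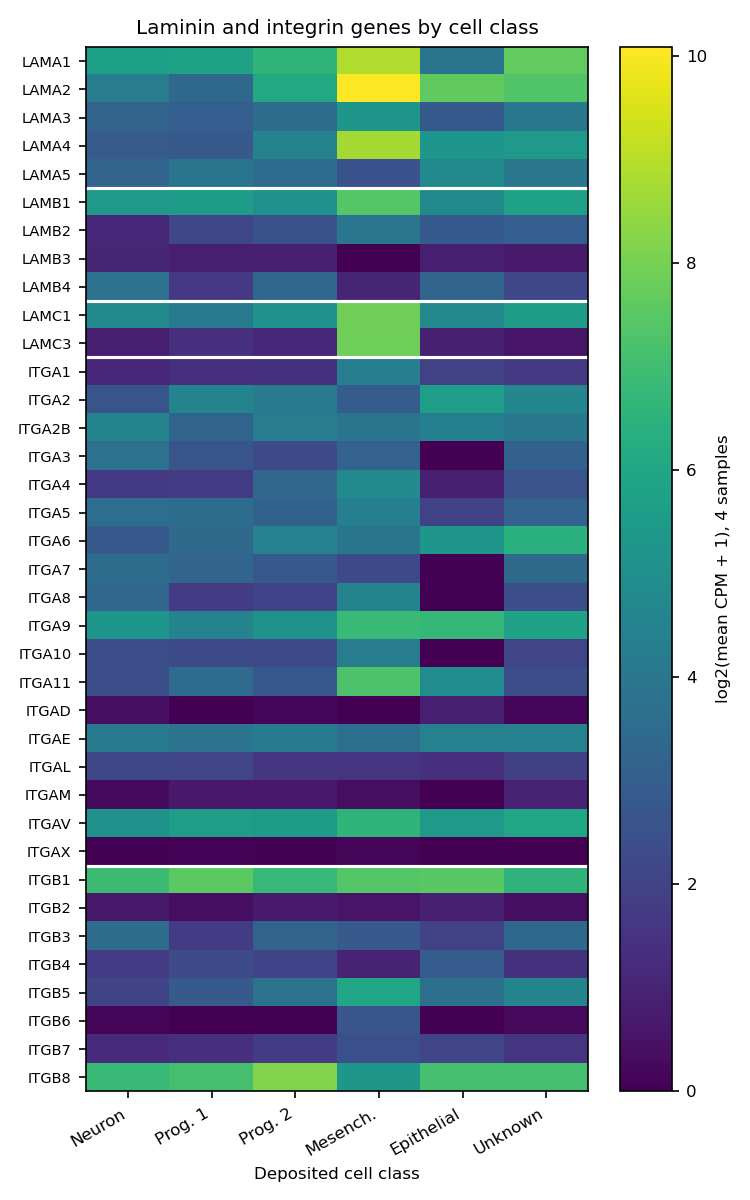
Mean level of laminin and integrin genes (rows) in each class (columns), as log2 of the mean CPM over 4 samples plus 1, on the colour scale. The laminin rows LAMA2, LAMA1, LAMA4, LAMC1, LAMC3 and LAMB1 are highest in the mesenchymal column, ITGB8 in Progenitor 2 and ITGA6 in the class labelled Unknown.

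Among the alpha chains, LAMA2, the chain of the laminin that surrounds muscle fibres and Schwann cells, was at 917 and 1235 CPM in control and 807 and 1401 CPM in PP121 mesenchymal nuclei, 1089.8 ± 275 CPM over the samples (SD, n = 4). In neurons it was at 18.0 ± 1.5 CPM, a paired log2 difference of 5.89 ± 0.35 (SD, n = 4). Progenitor 2 stood between, at 60.5 and 77.7 CPM in control and 90.2 and 49.3 CPM in PP121, above both neurons and Progenitor 1 (4.55 to 13.5 CPM) in every sample. LAMA4, a chain of vascular and mesenchymal basement membranes, was at 420, 392, 471 and 406 CPM in mesenchymal nuclei of control 1, control 2, PP121 1 and PP121 2, and at 6.6 ± 1.3 CPM in neurons. That was a paired log2 difference of 6.03 ± 0.33, with little spread over the samples. LAMA1, the alpha chain of the embryonic laminin, was at 353, 560, 447 and 539 CPM in the same order. In neurons LAMA1 was at 34.0, 60.3, 45.3 and 65.9 CPM, so that its mesenchymal excess was smaller, at 3.23 ± 0.15 on the log2 scale.

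LAMA3, the alpha chain of the epithelial laminin, was uneven in mesenchymal nuclei, at 2.80 and 49.5 CPM in control and 6.73 and 93.6 CPM in PP121. Its other main-class values ran from 4.55 to 13 CPM. LAMA5, the most widely expressed alpha chain of mature epithelia and vessels, was low throughout, highest of the main classes in Progenitor 1 with 12.3 to 17.7 CPM.

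LAMB1, the beta chain shared by the embryonic and mesenchymal laminins, was at 188, 153, 182 and 161 CPM in mesenchymal nuclei, 42.6 ± 4.9 CPM in neurons, 45.4 ± 5.2 CPM in Progenitor 1 and 32.8 ± 4.8 CPM in Progenitor 2. Its mesenchymal values did not overlap those of any other main class. LAMB2, the beta chain of synaptic and kidney basement membranes, was at 11.2 to 16.8 CPM in mesenchymal nuclei and at most 5.56 CPM elsewhere among the main classes. LAMB3, of the epithelial laminin, was at most 1.48 CPM in the main classes, and LAMB4 was highest in neurons, at 10.5 to 16.8 CPM.

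LAMC1, the gamma chain found in most laminins, was at 230, 177, 404 and 131 CPM in mesenchymal nuclei and at 20.8, 22.2, 24.1 and 38.3 CPM in neurons, a paired log2 difference of 3.08 ± 0.97. LAMC3, a gamma chain described in brain and vascular basement membranes, had the largest difference between mesenchymal nuclei and neurons of the 13 genes above 50 CPM, 8.09 ± 1.97 on the log2 scale. It was at 353, 109, 347 and 108 CPM in mesenchymal nuclei and at no more than 2.53 CPM in neurons and progenitors, and 81.1% to 94.3% of its UMIs in a sample fell in mesenchymal nuclei. In control 1 its mesenchymal count was 126 UMIs in 29 nuclei, of which 3 nuclei held 31.7%.

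Of the beta subunits, ITGB1, the partner of most laminin and collagen binding alpha subunits, varied less between classes. It was at 115, 129, 101 and 131 CPM in neurons, 173, 226, 141 and 202 CPM in Progenitor 1, 105, 135, 90.7 and 93.9 CPM in Progenitor 2, and 207, 176, 141 and 151 CPM in mesenchymal nuclei. Progenitor 1 lay above neurons in every sample, by 0.63 ± 0.14 on the log2 scale. Progenitor 1 and mesenchymal nuclei overlapped.

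ITGB8, which pairs with ITGAV and is known for activating latent TGF-beta, was highest in Progenitor 2. It was at 248, 318, 271 and 311 CPM there, against 117, 99, 117 and 114 CPM in neurons, 112, 153, 84.2 and 198 CPM in Progenitor 1 and 8.41, 52.5, 23.6 and 73.4 CPM in mesenchymal nuclei. The Progenitor 2 values overlapped none of the others, with a paired log2 difference of 1.36 ± 0.26 from neurons and 1.13 ± 0.43 from Progenitor 1. ITGB5, another partner of ITGAV that binds vitronectin, was at 50.5, 50.8, 60.6 and 80.1 CPM in mesenchymal nuclei and 3.2 ± 0.8 CPM in neurons, with Progenitor 2 between at 8.80 to 17.9 CPM.

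**Figure D2:**
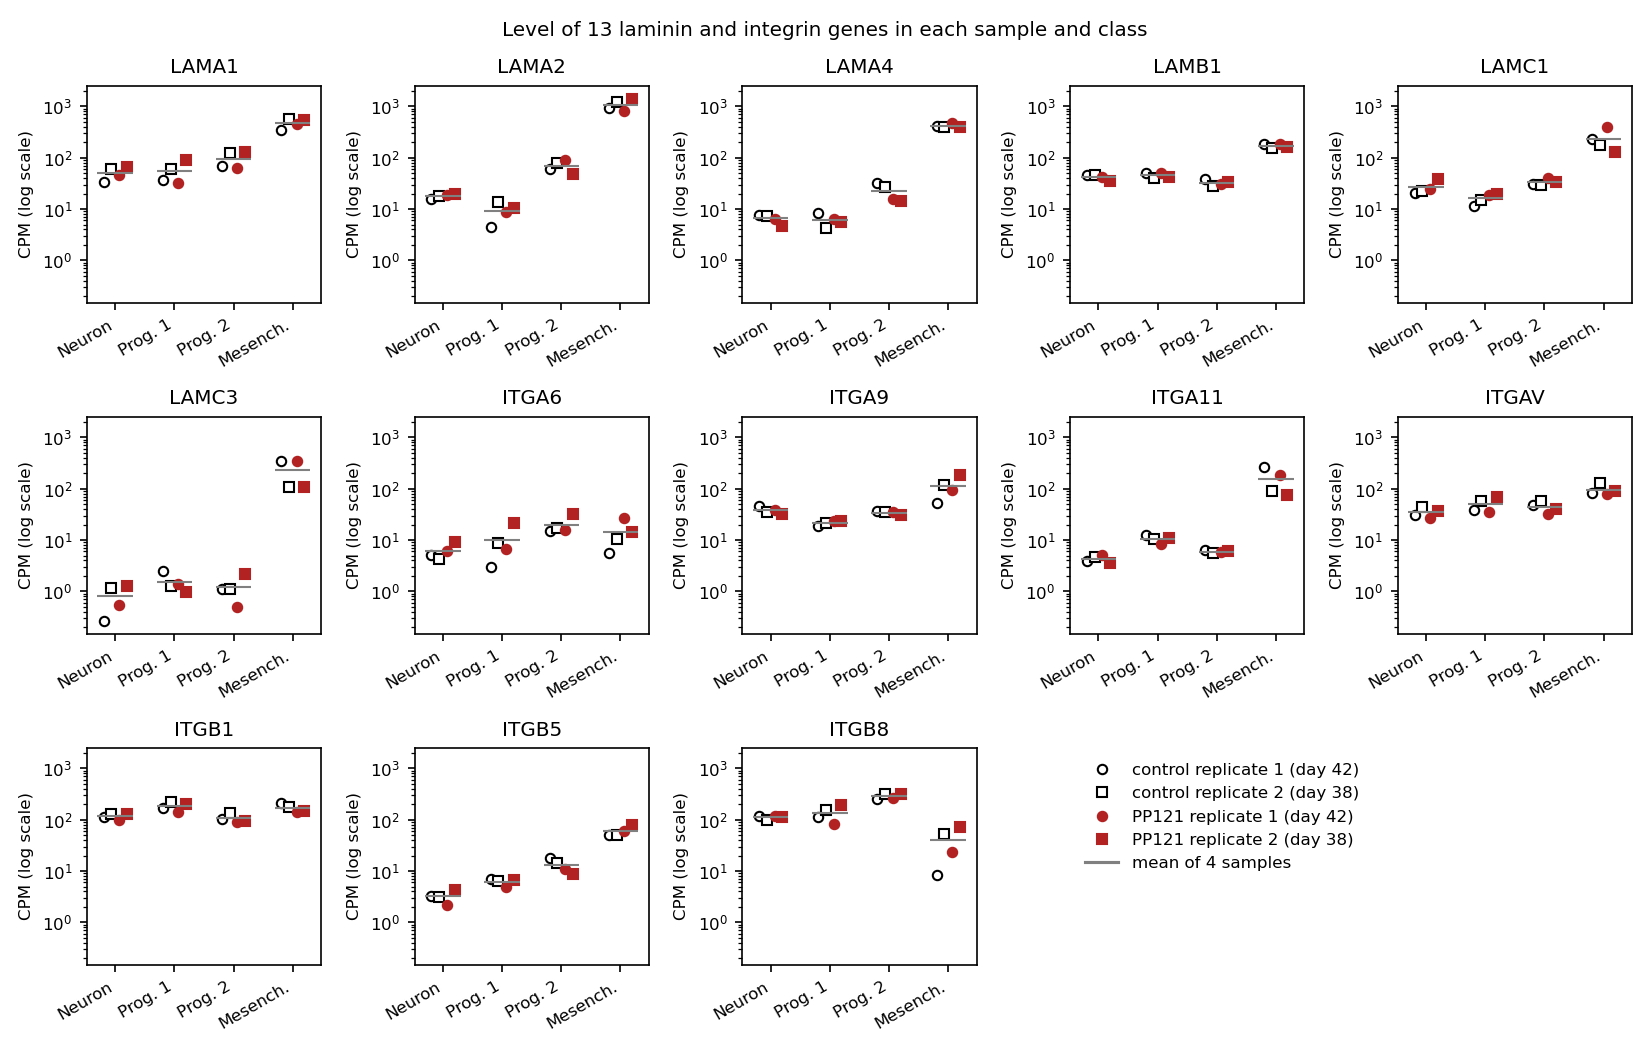
Level in CPM (log axis) of genes with at least 50 CPM in a class, with 1 point per sample in each of the 4 main classes and a grey line at the mean. Mesenchymal points of LAMA2, LAMA4 and LAMC3 sit far above the points of neurons and progenitors, and the Progenitor 2 points of ITGB8, 248 to 318 CPM, sit above all others.

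The collagen-binding alpha subunits were mesenchymal except ITGA2. ITGA11 was at 261, 90.4, 185 and 74.0 CPM in mesenchymal nuclei and 4.3 ± 0.7 CPM in neurons, and ITGA1 and ITGA10 were at 6.08 to 30.8 CPM and 9.22 to 30.8 CPM there. ITGA2 was instead at 17.7 to 34.2 CPM in Progenitor 1 and 15.4 to 19.1 CPM in Progenitor 2, against 3.62 to 6.28 CPM in neurons.

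ITGAV, which pairs with several beta subunits to bind RGD-containing matrix proteins, was at 81.3, 129, 77.4 and 91.0 CPM in mesenchymal nuclei and 34.7 ± 7.5 CPM in neurons. ITGA9, a receptor for tenascin and other ligands, was at 53.3, 116, 94.2 and 182 CPM in mesenchymal nuclei and 38.1 ± 5.7 CPM in neurons, with the lowest main-class level in Progenitor 1, 21.9 ± 2.2 CPM. ITGA4, known in neural crest cells as a fibronectin receptor, was at 16.6 to 37.0 CPM in mesenchymal nuclei and at 5.87 to 15 CPM in Progenitor 2.

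The laminin-binding alpha subunits ITGA3, ITGA6 and ITGA7 were low in the main classes. ITGA6 was at 14.9 to 31.7 CPM in Progenitor 2 and at 4.33 to 9.02 CPM in neurons. ITGA3 and ITGA7 were highest in neurons, at 10.4 to 15.9 CPM and 9.27 to 12.6 CPM.

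Neurons were above mesenchymal nuclei without overlap for 6 of 27 genes, where 22.2% of all genes were. Among these were LAMB4, ITGA2B, ITGA7 and ITGB8. ITGA2B and ITGB3, known as the platelet fibrinogen receptor, were at 19.5 to 26.7 CPM and 9.65 to 13.2 CPM in neurons. The leukocyte integrins ITGAD, ITGAM, ITGAX and ITGB2 stayed at or under 1.11 CPM in the main classes, and ITGAL at or under 4.55 CPM.

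Between neurons and the progenitors the counts were closer to those of other genes. Neurons were above Progenitor 1 for 8 of 20 genes (26.2% of all genes) and below for 3 of 20 (28.4%), and above Progenitor 2 for 4 of 22 (18.3%) and below for 6 of 22 (22.9%). Those higher in Progenitor 2 than in neurons were LAMA2, LAMA4, ITGA2, ITGA6, ITGB5 and ITGB8. Progenitor 2 was above Progenitor 1 for 7 of 18 genes (25.6%) and below for 3 of 18 (25%). Progenitor 1 was above mesenchymal nuclei for 3 of 24 (22.8%), namely ITGA2, ITGB8 and LAMA5, and Progenitor 2 for 2 of 24 (20.1%), ITGA2 and ITGB8. With nuclei reassigned by the common rule, 1 gene and not 3 lay above in Progenitor 1 against Progenitor 2, and 4 and not 2 in Progenitor 2 against mesenchymal nuclei.

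The 60 to 211 nuclei per sample that the annotation leaves as Unknown held the highest ITGA6 level, at 101, 63.1, 104 and 63.0 CPM, above every main-class value. They also held LAMA1 at 231, 232, 278 and 78.4 CPM and LAMA2 at 74.5, 75.7, 180 and 324 CPM. Nuclei labelled epithelial had ITGA2 at 15.5 to 96.4 CPM, ITGB1 at 151 to 229 CPM and LAMA2 at 83.7 to 274 CPM, each from 9 to 37 nuclei. The epithelial chain LAMB3 and the hemidesmosome subunit ITGB4 were at 0 in at least 2 of those 4 samples.

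Low levels in neurons were set beside those of 10 mesenchymal markers, since free RNA in a droplet gives UMIs in nuclei that do not make a gene. The median neuron level of the markers was 0.412% and 2.05% of their mesenchymal level in the controls and 0.401% and 1.71% in PP121. For the 14 laminin and integrin genes higher in mesenchymal nuclei than in every other main class without overlap it was 9.01%, 11.6%, 4.48% and 11.3%. In replicate 2, where mesenchymal nuclei were many, LAMA2 (1.42% and 1.39%), LAMC3 (1.07% and 1.16%) and LAMA4 (1.89% and 1.15%) lay below the marker median. In replicate 1 LAMC3 lay below it too (0.0747% and 0.154%), while LAMA2 (1.75% and 2.35%) and LAMA4 (1.82% and 1.37%) lay above it. Only the markers PDGFRA (10.6% and 63.6%) and MSX1 (6.99% and 19.4%) were higher than LAMA2 and LAMA4 there. LAMA1 at 9.62% to 12.2%, LAMB1 at 22.2% to 30.0% and ITGAV at 33.9% to 40.9% lay above the marker median in every sample. LAMA1 also stayed under the highest marker of each sample, at 10.6%, 24.2%, 63.6% and 24.7%. The part of free RNA in the neuron levels of these genes was not tested.

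**Figure D3:**
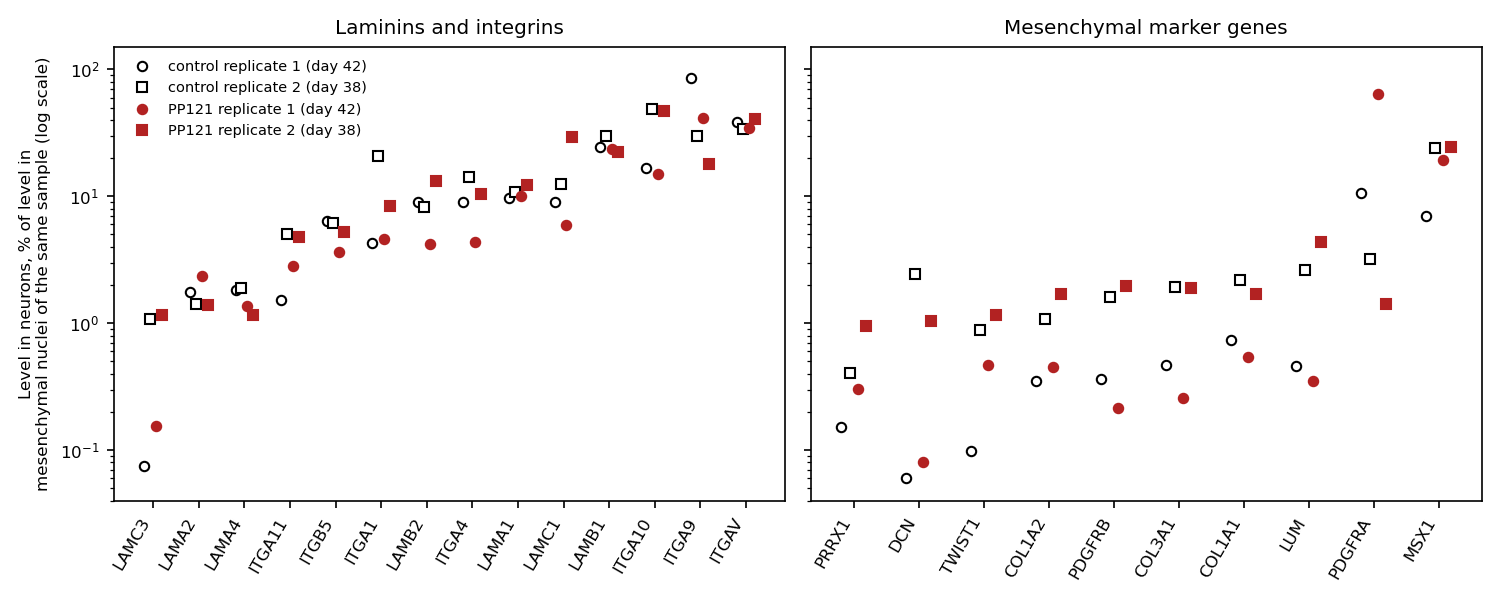
Level in neurons as a percent of the level in mesenchymal nuclei (log axis), with 1 point per sample. Shown are 10 mesenchymal markers and the 14 laminin and integrin genes higher in mesenchymal nuclei than in every other main class without overlap. LAMC3, LAMA4 and LAMA2, at 0.0747% to 2.35%, and LAMA1, at 9.62% to 12.2%, lie under the highest marker in every sample. LAMB1 and ITGAV lie between 22.2% and 40.9%.

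Shares of nuclei with a UMI gave the same order. Each nucleus was thinned to 2000 UMIs, and exact 95% binomial intervals cover counting error only. LAMA4 was then found in 41.2% (36.4 to 46.2) of mesenchymal nuclei in control 2 and 45.5% (40.6 to 50.4) in PP121 2, against 1.12% and 0.719% of neurons. Without thinning it was found in 62.7% and 71.1% of mesenchymal nuclei and 5.20% and 3.48% of neurons. ITGB8 was found in 35.8%, 45.1%, 37.9% and 42.4% of thinned Progenitor 2 nuclei and in 15% to 18.0% of neurons, and unthinned in 65.3% to 76.1% and 36.7% to 41.2%.

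The first treatment comparison asked whether PP121 given on days 15 to 20 changed laminin or integrin levels in neurons weeks later. None was called: 0 of the 34 tested passed an adjusted p of 0.05 in edgeR's quasi-likelihood test on summed counts, and 0% of all genes did. At an unadjusted p under 0.05 there was 1, ITGA6 (2549 of the 21243 genes tested), and DESeq2 called 0 (102 of all genes). Across 4 samples that test has 2 residual degrees of freedom, and the p-values measure the spread between these samples of 1 line.

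With the replicate number as a block, LAMC1 and LAMA5 were higher in PP121 neurons, 2 of 34 where 14.8% of all genes were called. LAMC1 was at 20.8 and 22.2 CPM in control and 24.1 and 38.3 CPM in PP121 neurons. The groups did not overlap but PP121 1 lay just above the controls. Its log2 fold change was 0.53 ± 0.14 (SE; adjusted p = 0.0118 in edgeR) against 0.57 and 0.418 without the block. LAMA5 was at 5.65 and 8.30 CPM in control and 7.78 and 13.1 CPM in PP121, which overlap, with 0.60 ± 0.20 (adjusted p = 0.0414 in edgeR). Both rested on PP121 2: without it the log2 fold changes were 0.18 for LAMC1 and 0.19 for LAMA5. ITGA6 was at 5.01 and 4.33 CPM in control and 6.24 and 9.02 CPM in PP121 neurons, and edgeR's adjusted p under the block was 0.0512. With nuclei reassigned by the common rule and the block, neither LAMC1 (edgeR adjusted p = 0.190) nor LAMA5 (0.130) was called.

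In Progenitor 1, 0 of 26 genes were called (0% of all genes). An unadjusted p under 0.05 was found for 0 (621 of the 16083 genes tested), and DESeq2 called 0 (1 of all genes). With the block, ITGA6 was called, 1 of 26 where 3.69% of all genes were. It was at 3.03 and 8.78 CPM in control and 6.84 and 21.7 CPM in PP121, groups that overlap, and differed by 1.23 ± 0.36 on the log2 scale (adjusted p = 0.0209 in edgeR). Each PP121 sample was above the control of its own day. Without PP121 2 the log2 fold change was 0.08.

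In Progenitor 2, LAMA4 was the member with the smallest p. It was at 32.6 and 26.5 CPM in control and 15.4 and 14.2 CPM in PP121, and the groups lay apart. The log2 fold change was -0.97 ± 0.18 (SE), and edgeR's adjusted p was 0.204 without the block and 0.000107 with it. ITGAV was at 47.4 and 56.8 CPM in control and 32.7 and 41.1 CPM in PP121, with -0.47 ± 0.14 and, under the block, an edgeR adjusted p of 0.0273. ITGB5 was at 17.9 and 14.2 CPM in control and 11.1 and 8.80 CPM in PP121, with -0.66 and, under the block, an edgeR adjusted p of 0.0564.

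Without the block 0 of 31 genes were called in Progenitor 2 (0% of all genes). At an unadjusted p under 0.05 there were 3 (1774 of the 18885 genes tested), and DESeq2 called 0 (98 of all genes). With the block 2 of 31 were called, both lower in PP121, where 6.71% of all genes were called. LAMA4 kept log2 fold changes of -0.84 to -1.08 when any 1 sample was left out, and was called with reassigned nuclei and the block (-0.89, edgeR adjusted p = 0.0037). Over the 31 the median log2 fold change was -0.0037, beside -0.0052 for all genes tested.

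In mesenchymal nuclei 0 of 27 genes were called without the block (0% of all genes) and 0 with it (0.452%), and DESeq2 called 0. Unadjusted p-values under 0.05 were found for 1 of the 27 without the block (222 of the 14387 genes tested) and 3 with it (718 of all genes). The smallest were those of ITGB7 (0 and 1.66 CPM in control, 10.1 and 6.05 CPM in PP121), ITGA3 and ITGA6. With 40 and 33 nuclei in replicate 1, changes of these low genes were not detectable at this depth.

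A PP121 effect that differed between neurons and progenitors was tested as an interaction. None of 34 genes was called with the sample as a block (0% of all genes) or without it (0%). With the block 0 had an unadjusted p under 0.05 (2123 of the 21787 genes tested), and DESeq2 called 0 (76 of all genes). The smallest p was that of ITGB3, whose log2 effects differed by 0.70 ± 0.32 (SE).

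Genes that share the basement membrane with laminins, and the cytoplasmic partners of integrins, were described in the same fits. These lists were compiled with earlier results of these data known. With the replicate block, 5 of 18 tested basement membrane partners were higher in PP121 neurons and 0 lower, where 14.8% of all genes were called in either direction. The median log2 fold change of the 18 was 0.29, beside -0.0055 for all genes. They included COL4A5, a type IV collagen chain (25.5 and 49.1 CPM in control, 38.2 and 80.1 CPM in PP121, 0.68 ± 0.11, SE), and SMOC1, a calcium-binding basement membrane protein (22.0 and 22.5 against 30.8 and 49.6 CPM, 0.84 ± 0.14). In Progenitor 1, 3 of 16 were higher (3.69% of all genes called), among them HSPG2, which encodes perlecan (0.84 ± 0.21), and in Progenitor 2, 4 of 18 were higher (6.71%), among them FRAS1 at 75.1 and 67.4 CPM in control and 118 and 122 CPM in PP121 (0.78 ± 0.13). In mesenchymal nuclei 0 of 17 were called. Without the block none of these was called in any class.

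Of 28 tested integrin adaptors in neurons, 5 were higher and 1 lower with the block, where 14.8% of all genes were called, and 0 were called without it. FERMT2, which encodes the integrin activator kindlin-2, was at 49.5 and 68.1 CPM in control and 79.7 and 96.1 CPM in PP121 neurons (0.63 ± 0.11, adjusted p = 0.000123 in edgeR). In Progenitor 2 it was at 108 and 105 CPM in control and 163 and 168 CPM in PP121 (0.66 ± 0.12). VCL, vinculin, was higher in the same classes (0.40 ± 0.10 and 0.66 ± 0.12), and CD47 was lower in neurons (-0.50 ± 0.11). Of the 27 adaptors tested in Progenitor 1 and the 27 in mesenchymal nuclei, 0 were called. Among other laminin receptors 1 of 7 in neurons, SDC2, a syndecan, was higher (0.62 ± 0.15), and 0 in the other classes. Of the other integrin ligands, 1 was higher and 3 were lower of 22 in neurons, 0 of 16 in Progenitor 1, and 1 higher and 1 lower of 20 in Progenitor 2. Without the block 0 of the receptors and ligands were called in any class.

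**Figure D4:**
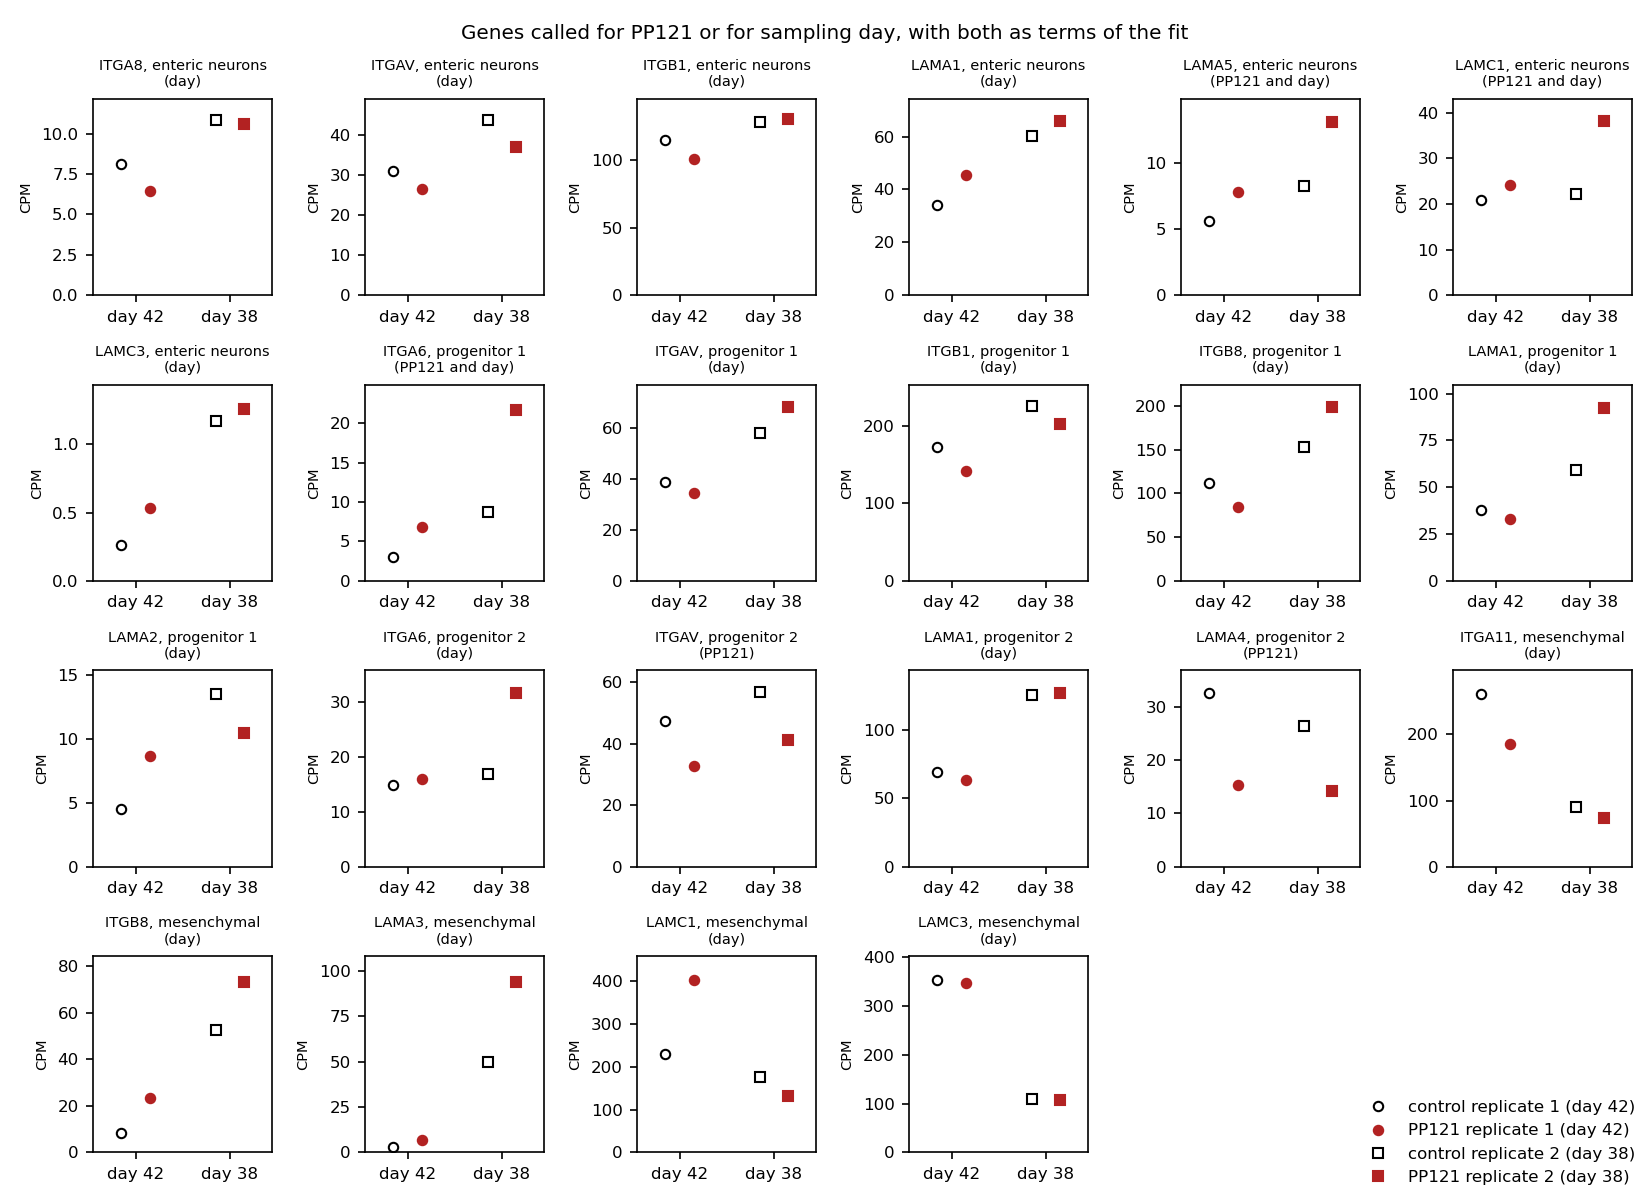
Level in CPM (axes from 0) per sample for the 22 pairs of gene and class in which a laminin or integrin gene was called in an edgeR fit with the replicate block or the treatment term, 13 genes in all, by day and treatment. LAMA4 in Progenitor 2 splits by treatment, at 26.5 and 32.6 CPM against 14.2 and 15.4 CPM, and LAMC3 in mesenchymal nuclei by replicate, at 347 and 353 CPM against 108 and 109 CPM.

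Replicate 2 (day 38) was compared with replicate 1 (day 42), 2 samples against 2 in each class. In mesenchymal nuclei 3 of 27 genes were called, where 1.93% of all genes were. LAMC3 was lower at day 38, 109 and 108 CPM against 353 and 347 CPM, a log2 difference of -1.73 ± 0.24 (SE; adjusted p = 0.0074 in edgeR). ITGA11 was also lower, at 90.4 and 74.0 CPM against 261 and 185 CPM, with -1.49 ± 0.28 (adjusted p = 0.0232 in edgeR). LAMA3 was higher, at 49.5 and 93.6 CPM against 2.80 and 6.73 CPM, with 3.90 ± 0.67 (edgeR adjusted p = 0.0146). In each of these the 2 samples of one day did not overlap the 2 of the other. The LAMA3 values of day 42 rest on fewer than 10 UMIs each, in class sums of 356782 and 297230 UMIs. With at least 10 counts required in every sample, 12 laminin and integrin genes were tested, and LAMA3 was not among them. Of the 12, 2 were called lower at day 38 and 0 higher, where 256 of 5455 genes were called.

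With treatment as a term 5 of 27 were called in mesenchymal nuclei (4.39% of all genes), adding LAMC1, which was lower at day 38 (-1.05 ± 0.29, SE, edgeR adjusted p = 0.0157), and ITGB8, which was higher (2.00 ± 0.51, edgeR adjusted p = 0.00576). ITGB8 rested on 3 and 7 UMIs at day 42, in control 1 and PP121 1. DESeq2 called 3 of the 27 (289 of the 14387 genes tested), and with no filter on low counts 0 were called (2 of 27464 genes). The nuclei of this class differed in other ways between the days. Of 8 epithelial markers tested 4 were lower at day 38 (median log2 fold change of the list -2.0), and their summed level was 266 and 118 CPM at day 42 against 63.8 and 30.0 CPM at day 38. Leukocyte markers were at 137 and 33.6 CPM against 47.0 and 32.3 CPM, and cycling markers at 16.8 and 16.8 CPM against 82.1 and 116 CPM. The part of these in the LAMC3, ITGA11 and LAMA3 values was not tested.

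The type IV collagen chains that share the basement membrane with laminins were lower at day 38 in mesenchymal nuclei as well. COL4A1 was at 706 and 777 CPM at day 42 and 194 and 95.9 CPM at day 38, and COL4A2 at 779 and 787 against 230 and 194 CPM. Both passed the edgeR test without the treatment term (edgeR adjusted p = 0.0068 and 0.00578). SMOC2, FREM1 and TGFB2 were higher at day 38, and CD47 was lower. In all, 4 of 17 basement membrane partners, 2 in each direction, 0 of 8 other laminin receptors, 2 of 19 other ligands and 1 of 27 adaptors were called without the term, where 1.93% of all genes were.

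In neurons 0 of 34 genes were called between the days without the treatment term (0% of all genes). At an unadjusted p under 0.05 there were 4 (1574 of the 21243 genes tested), and DESeq2 called 0 (59 of all genes). With the term 7 were called, all higher at day 38, where 9.49% of all genes were called. LAMA1 was at 60.3 and 65.9 CPM against 34.0 and 45.3 CPM (0.74 ± 0.11, SE, edgeR adjusted p = 4.92e-05), and ITGAV at 43.8 and 37.2 against 31.1 and 26.6 CPM (0.55 ± 0.12, edgeR adjusted p = 0.00295). The others were ITGB1 (0.33 ± 0.10), LAMA5 (0.72), ITGA8 (0.62), LAMC1 (0.45, with values of the days that overlap) and LAMC3 (1.69, from 0.264 and 0.535 to 1.17 and 1.26 CPM). With reassigned nuclei LAMA1 and ITGAV were the 2 still called.

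In Progenitor 1, 0 of 26 were called without the term (0% of all genes). At an unadjusted p under 0.05 there were 8 (3106 of the 16083 genes tested), and DESeq2 called 3 (461 of all genes). With the term 6 were called, all higher at day 38, where 14.6% of all genes were called. LAMA1 was at 59.4 and 92.3 CPM against 37.6 and 32.9 CPM (1.24 ± 0.20, SE, edgeR adjusted p = 1.69e-07). ITGB8 was at 153 and 198 against 112 and 84.2 CPM (1.00 ± 0.17, edgeR adjusted p = 5.19e-07). ITGA6 (1.77 ± 0.35), ITGAV (0.94 ± 0.21), ITGB1 (0.61 ± 0.16) and LAMA2 (1.02 ± 0.34) were higher as well.

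In Progenitor 2, 0 of 31 were called without the term (0% of all genes). At an unadjusted p under 0.05 there were 5 (1219 of the 18885 genes tested), and DESeq2 called 1 (64 of all genes). With the term LAMA1 and ITGA6 were called, 2 of 31 where 4.81% of all genes were. LAMA1 was at 126 and 128 CPM at day 38 against 69.7 and 63.2 CPM at day 42 (0.99 ± 0.13, SE, edgeR adjusted p = 2.6e-08), with little spread within a day. ITGA6 was at 16.8 and 31.7 CPM against 14.9 and 15.9 CPM, so that PP121 2 alone stood clearly above the rest. LAMA1 was thus the laminin called higher at day 38 with the term in neurons and in both progenitor classes. Mesenchymal markers were also called higher at day 38 in these classes with the term, 7 of 10 tested in neurons (median log2 fold change 2.28), 5 of 8 in Progenitor 1 (1.52) and 6 of 9 in Progenitor 2 (2.10), and the day 38 samples held 408 and 422 mesenchymal nuclei against 40 and 33. LAMA1 in neurons was at 9.62% to 12.2% of its mesenchymal level on both days, and the part of free RNA in the day difference was not tested.

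The partner lists between the days, with treatment as a term, were as follows. In neurons 4 of 18 basement membrane partners, 0 of 7 other laminin receptors, 5 of 22 other ligands and 4 of 28 adaptors were higher at day 38, while 1 ligand and 2 adaptors were lower, where 9.49% of all genes were called in either direction. In Progenitor 1, 2 of 16 basement membrane partners, 1 of 7 receptors, 5 of 16 ligands and 7 of 27 adaptors were higher, and 2 ligands and 1 adaptor were lower (14.6% of all genes). In Progenitor 2, 7 of 18 basement membrane partners, 0 of 7 receptors, 7 of 20 ligands and 1 of 27 adaptors were higher, and 2 ligands were lower (4.81%). Without the term 0 genes of these lists were called in the 3 classes. COL4A2 was called higher at day 38 in all 3 classes, at 25.6 and 39.4 CPM against 14.4 and 17.0 CPM in neurons, which is the opposite direction to its values in mesenchymal nuclei. That difference in direction was not tested.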

How the data were processed

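Single nuclei of 2 control and 2 PP121 samples of H9-derived enteric ganglioids were profiled with a droplet 3′ chemistry. The authors deposited 1 matrix per sample of UMI counts per gene and nucleus, not normalized, made by alignment to GRCh38; the submitters' notes name Cell Ranger and Seurat 4.0.4, while the study's methods name kallisto and bustools. Whether introns or strand were used is not given in the sources used here, and 22 of the 38 genes overlap an antisense gene of the matrix (24 any other gene), so that their counts are uncertain. The percent of mitochondrial and ribosomal counts per nucleus, as deposited by the authors, was read to describe nuclei only, and no nucleus was dropped on it. A deposited table gives each nucleus a class; those marked Filtered were left out. The number of barcodes shared by 2 samples was 0 to 8. Doublets were not called again. The deposited sample names disagreed with the labels for the control samples, and the labels were used.

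Counts were summed per sample and class. Levels are CPM. Tests were edgeR 4.0.16 quasi-likelihood fits (R 4.3.3) with TMM factors and filterByExpr, two-sided, with Benjamini-Hochberg adjustment over all genes tested and a threshold of 0.05, with 2 residual degrees of freedom and 1 with a block. DESeq2 1.42.0 was an alternative, as were the replicate block or treatment term, other filters, reassigned classes and leaving out each sample. The replicate number pairs the samples because the annotation gives each number its own day; deviations from the group means of same-numbered samples correlated at 0.421 in neurons, 0.435 in Progenitor 1, 0.275 in Progenitor 2 and 0.276 in mesenchymal nuclei. The fits were tested on simulated data. Values in every sample are given for genes with a mean of at least 50 CPM in a class, and for each test the genes called in either fit, or the 3 with the smallest p; ranges and counts stand for the rest. Some results are not reported here. The genes, partner lists and tests were chosen with earlier results of these data known. Promoters are from RefSeq (GRCh38.p14) and gene spans from GENCODE 29.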

Additional observations from a re-analysis of the deposited data

Results flagged for a closer look

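The difference between day 38 and day 42 went opposite ways in different classes for 2 laminin gamma chains. LAMC1 was higher at day 38 in neurons, by 0.45 on the log2 scale, and lower in mesenchymal nuclei, with a log2 fold change of -1.05, both in edgeR with treatment as a term. Its neuron values at day 38 and day 42 overlapped, and PP121 2 alone stood clearly above the rest. In neurons of PP121 2, 3 nuclei held 12.8% of the LAMC1 UMIs, against 3.45% to 6.50% in the other samples. With reassigned nuclei neither LAMC1 nor LAMC3 was called in neurons. LAMC3 was higher in neurons by 1.69, from 5 and 9 UMIs to 13 and 11 UMIs in a sample, and lower in mesenchymal nuclei with -1.73. LAMC3 in neurons of day 38 stood at 1.07% and 1.16% of its mesenchymal level, below the median of the mesenchymal markers (2.05% and 1.71%). Of 10 mesenchymal markers 7 were also called higher in day 38 neurons, with a median log2 fold change of 2.28. The part of free RNA in the neuron values of LAMC1 and LAMC3 was not tested. The difference between the classes was not tested in either case.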

How the results depend on the processing

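The counts of laminin and integrin genes called between treatments changed with the replicate block, which gave 2 in neurons, 1 in Progenitor 1 and 2 in Progenitor 2 in place of 0. The block combined with reassigned classes, an alternative chosen after seeing the data, gave 1 in Progenitor 1 and 1 in Progenitor 2, and no filter on low counts gave 1 in Progenitor 2. Of all genes tested these fits called 277 of 17954, 750 of 19264 and 768 of 30302. Between replicates, treatment as a term gave 7 in neurons, 6 in Progenitor 1, 2 in Progenitor 2 and 5 in mesenchymal nuclei, and with reassigned classes, also chosen after seeing the data, 2, 8 and 1 in the first 3. Of all genes tested the term with reassigned classes called 842 of 20955, 2439 of 17954 and 649 of 19264 in the first 3. DESeq2 gave 3 in Progenitor 1 (461 of 16083 genes) and 1 in Progenitor 2 (64 of 18885). No filter gave 4 in Progenitor 1 (1261 of 28981), 1 in Progenitor 2 (415 of 30302) and 0 in mesenchymal nuclei (2 of 27464). Reassigned classes gave 4 in Progenitor 1 (431 of 17954). The cause was not tested. Leaving out 1 sample at a time also moved the counts called for PP121 in neurons, Progenitor 1 and Progenitor 2, which were highest without PP121 replicate 1. In Progenitor 2 the directions called then differed from those under the block. Between replicates it gave 0 to 4 in Progenitor 1, the highest without control replicate 2, and 3 to 7 in mesenchymal nuclei, the highest without PP121 replicate 1. Where an arm was left with 1 sample, that sample was assumed to vary like the others. Of the levels by class, neurons above Progenitor 2 ranged over 4 to 7 genes, Progenitor 1 above Progenitor 2 over 2 to 5, Progenitor 2 above Progenitor 1 over 7 to 12 and Progenitor 2 above mesenchymal nuclei over 2 to 4 when 1 sample was left out, and reassigned classes gave 1 for Progenitor 1 above Progenitor 2 and 4 for Progenitor 2 above mesenchymal nuclei. Of 400 alternatives over the 38 results for single genes, 334 kept the direction and side of the threshold, 63 passed it newly, 3 no longer passed and 0 reversed. The 38 were chosen by passing the main fit or the fit with the block or term, or by the smallest p. The fit with the block or term is also counted among the alternatives, so that part of this tally was fixed by the choice. The 40 and 33 mesenchymal nuclei of replicate 1 limit what the day comparison can show for genes of low level.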

Other observations

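Within the neuron class, the nuclei annotated as nitrergic were set beside those annotated as other, by CPM in each sample. Neurons with neither label were left out, and whether their share was alike in control and PP121 samples was not examined. No test was run, since that annotation came from the same counts. ITGB8 was lower in nitrergic nuclei in 4 of 4 samples, at 74.0 against 127 CPM in control 1, 66.0 against 105 CPM in control 2, 100.3 against 113 CPM in PP121 1 and 58.0 against 115 CPM in PP121 2, a mean log2 difference of -0.65 ± 0.35 (SD, n = 4). ITGB1 (-0.37 ± 0.13), ITGAV (-0.37 ± 0.14) and LAMA2 (-0.39 ± 0.26) were also lower in every sample. ITGA9 (0.23 ± 0.15) and ITGA6 (0.54 ± 0.23) were higher in every sample, ITGA6 at 5.92 to 9.29 CPM in nitrergic nuclei against 3.92 to 7.34 CPM in the others. Few UMIs stand behind ITGA6, 48 to 105 in all neurons of a sample and fewer in the nitrergic nuclei alone.

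Of the partners of laminins and integrins, FN1, the gene of fibronectin, was at 401 ± 122 CPM in mesenchymal nuclei (SD, n = 4) and 23.0 CPM in neurons. NID1, which encodes the nidogen that binds laminin gamma chains, was at 40.0 CPM in mesenchymal nuclei and 1.55 CPM in neurons. HSPG2 was highest in Progenitor 1, at 52.1 CPM. DAG1, which encodes the laminin receptor dystroglycan, was at 30.0 to 41.2 CPM in the 4 main classes, AGRN at 15.4 to 22.8 CPM and PTK2, the focal adhesion kinase, at 653 to 916 CPM. TLN1, talin, was at 61.5 CPM in mesenchymal nuclei and 17.8 to 29.6 CPM in the others, and ITGB1BP1 at 33.6 to 61.4 CPM.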
